A study of Mus musculus with 8 samples.

Results

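The genes described here are the glucocorticoid receptor gene Nr3c1 and 8 genes known as its targets: Fkbp5, Zbtb16, Klf9, Klf15, Tsc22d3, Cebpb, Cebpd and Sgk1. They were chosen by symbol. All 9 were found among the 54532 genes of the count files, and all 9 passed the filter on low counts that left 10691 genes for testing. RNA came from the quadriceps of chow-fed mice aged 3 months. Control mice (4 libraries) were Gpcpd1 Flox/Flox and negative for Mck Cre, and knockout mice (4 libraries), labelled MckCre-Gpcpd1, were Gpcpd1 Flox/Flox and positive for MckCre. Both groups therefore carried the floxed allele, and the Cre transgene differed together with the loss of Gpcpd1, a gene for an enzyme that splits glycerophosphocholine. The Mck promoter (muscle creatine kinase) drives Cre in striated muscle fibres, so the other cells of the tissue are not targeted by design. The labels name no litter, time of day or hormone level, and they do not say that each library came from a different animal, and p-values can reflect no more than how much the libraries differ within a group.

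Glucocorticoids are steroid hormones of the adrenal gland, released in a daily rhythm and under stress. The receptor waits in the cytosol bound to HSP90 and its cochaperones, moves to the nucleus once it binds hormone, and there acts on DNA as a transcription factor. In skeletal muscle, glucocorticoids are known to promote protein breakdown and to restrain glucose uptake. Several of the 8 target genes are used as markers of hormone action in many tissues, and some of them also answer to other signals.

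The count of reads per library ran from 4404116 to 5405999. Each read marks the 3′ end of a polyadenylated transcript, and levels are given in CPM, the usual count scaled to a common library total, after adjustment of the totals by the TMM method. Gpcpd1 stood at 158.5, 156.3, 134.7 and 149.4 CPM in controls 1 to 4 and at 30.4, 35.7, 35.9 and 38.6 CPM in knockouts 1 to 4, so its 3′ reads were low in each library labelled knockout. No source used here says which exons were floxed, and 3′ reads may lie outside them. Over all tested genes, 8.87% were called higher and 6.80% lower in knockouts (edgeR adjusted p under 0.05), and the marker counts are to be read beside these shares. Of 12 tested muscle fibre markers 2 were higher and 1 lower. The call of Acta1, 1 of the 2 higher, was at adjusted p = 0.0495 and was lost with RLE scaling (0.0586), without the robust estimate of spread (0.057), with the library number as a covariate (0.073) and without any 1 library other than control 2 (0.0566 to 0.136). Of 8 tested macrophage markers 0 were higher and 3 lower, namely Cd163, C1qb and Csf1r. The call of Csf1r was lost by limma voom (0.0666) and without control 2, 3 or 4 or knockout 1, 2 or 4 (0.0637 to 0.166). Without controls 3 and 4 together, the calls of Cd163 (0.062), C1qb (0.0615) and Csf1r (0.385) were all lost. The macrophage markers summed to between 93.7 and 154.9 CPM in controls and between 66.8 and 110.9 CPM in knockouts. Of 9 tested markers of fibro-adipogenic and matrix cells 1 was higher and 2 lower. Of the 2 lower, Dcn lost its call with the covariate (0.0532) and without control 3, control 4, knockout 3 or knockout 4 (0.0571 to 0.148), which leaves 1. Among 10 endothelial, 7 smooth muscle and pericyte, 6 adipocyte, 5 red cell, 4 satellite cell and 2 neutrophil markers tested, 0 passed the threshold. Ucp1, Retnlg and Cxcr2, defining markers of brown adipocytes and neutrophils, had 0 reads in both groups. In bulk tissue, fewer cells of a type and less RNA per cell cannot be told apart.

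None of the 9 genes passed the threshold. By edgeR's quasi-likelihood test, with p-values adjusted over all tested genes, 0 of 9 were called, against 15.7% of all tested genes. DESeq2 and limma voom also called 0 of 9. At an unadjusted p under 0.05, edgeR took 4 of the 9, namely Zbtb16, Klf9, Tsc22d3 and Sgk1, against 28.1% of all tested genes. In alternative analyses this count ran from 1 (without control 4, and without controls 1 and 2) to 5 (DESeq2 among others). The group's fitted values lay on 1 side for 8 of the 9: all but Sgk1 had a log2 fold change (knockout minus control) below 0, and the median was -0.21, beside 0.01 over all tested genes. Without control 4, 7 of the 9 were below 0. For 0 of the 9 were the 4 knockout libraries separated from the 4 control libraries, while the groups did not overlap for 19.2% of all tested genes.

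**Figure D1:**
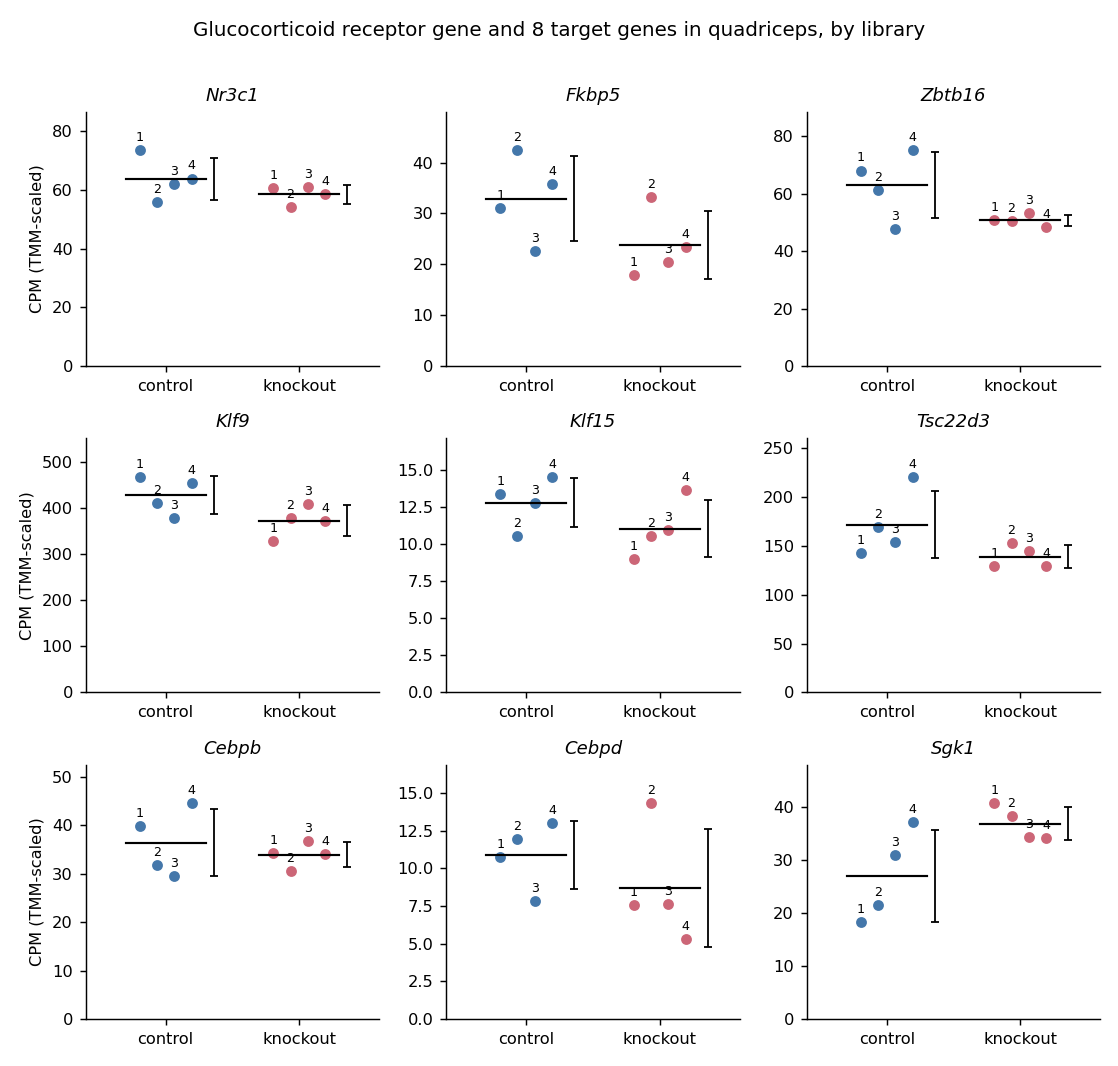
Level in CPM (y axis, from 0) of each of the 9 genes in the 4 control (blue) and 4 knockout (red) libraries, with replicate numbers beside the points, the mean as a line and the SD as a bar to its right. The groups overlap in all 9 panels, and Sgk1 is the panel where the knockout mean (36.8 CPM) is above the control mean (27.0 CPM).

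Nr3c1 encodes the glucocorticoid receptor itself (ENSMUSG00000024431, GRCm38 chromosome 18, 39410545 to 39519421, minus strand). It stood at 73.4, 55.9, 61.9 and 63.9 CPM in controls 1 to 4 and at 60.5, 54.0, 60.9 and 58.4 CPM in knockouts 1 to 4. Control 1 was the highest library, and the other 7 lay between 54.0 and 63.9 CPM. The means were 63.8 ± 7.27 CPM in controls and 58.5 ± 3.16 CPM in knockouts (SD, n = 4 each). The log2 fold change was -0.12 (SE 0.10, edgeR adjusted p = 0.437). Its 95% interval ran from -0.32 to 0.08, which places the knockout level between 79.9% and 105.0% of control. Nr3c1 was thus measured with the second narrowest interval of the group, after Klf9, and it passed the threshold in 0 of 18 alternative analyses.

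Fkbp5 encodes FKBP51, an HSP90 cochaperone that lowers the receptor's affinity for hormone and is itself induced by the receptor, a short negative feedback loop (ENSMUSG00000024222, chromosome 17, 28399094 to 28517527, minus strand). It stood at 31.0, 42.4, 22.5 and 35.7 CPM in controls 1 to 4 and at 17.8, 33.2, 20.4 and 23.5 CPM in knockouts 1 to 4. The lowest control, control 3, and the highest knockout, knockout 2, crossed over, while the other 3 controls were above the other 3 knockouts. The log2 fold change was -0.47 (SE 0.21, edgeR adjusted p = 0.179), with a 95% interval from -0.93 to 0.00. Fkbp5 was called lower without control 3 (log2 fold change -0.63, adjusted p = 0.0238) and without knockout 2 (-0.68, adjusted p = 0.0144). These are the libraries that crossed over. Over 18 alternative analyses the values ran from -0.68 to -0.29, and Fkbp5 was called in 3.

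Zbtb16 encodes PLZF, a zinc finger transcription factor (ENSMUSG00000066687, chromosome 9, 48654297 to 48836222, minus strand). It stood at 68.1, 61.2, 47.8 and 75.0 CPM in controls 1 to 4 and at 50.9, 50.6, 53.1 and 48.4 CPM in knockouts 1 to 4. Controls 1, 2 and 4 were above every knockout, and control 3 was below every knockout. The log2 fold change was -0.31 (SE 0.11, 95% interval -0.54 to -0.08, edgeR adjusted p = 0.0636). Without control 3, the control below every knockout, it was -0.44 and was called lower (adjusted p = 0.00604). Over 18 alternative analyses the values ran from -0.44 to -0.22, and Zbtb16 was called in 2.

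The Krüppel-like factor genes Klf9 and Klf15 encode transcription factors known as direct receptor targets, Klf15 being a regulator of amino acid breakdown in muscle. Klf9 (ENSMUSG00000033863, chromosome 19, 23141226 to 23168134, plus strand) stood at 466.7, 410.1, 377.3 and 454.4 CPM in controls 1 to 4 and at 327.8, 378.5, 408.6 and 371.6 CPM in knockouts 1 to 4. Knockouts 2 and 3 lay within the range of the controls, and control 3 within that of the knockouts. Its log2 fold change was -0.20 (SE 0.09, 95% interval -0.39 to -0.02, edgeR adjusted p = 0.139). Klf15 (ENSMUSG00000030087, chromosome 6, 90462576 to 90475238, plus strand) ran from 10.5 to 14.5 CPM in controls and from 9.01 to 13.6 CPM in knockouts, and the groups overlapped widely. Its log2 fold change was -0.21 (SE 0.16, edgeR adjusted p = 0.435), and the 95% interval allowed a knockout level between 68.2% and 109.0% of control. Neither gene was called in any of 18 alternative analyses.

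The C/EBP genes encode leucine zipper transcription factors that glucocorticoids and inflammatory signals induce. Cebpb (ENSMUSG00000056501, chromosome 2, 167688915 to 167690418, plus strand) ran from 29.6 to 44.6 CPM in controls and from 30.6 to 36.8 CPM in knockouts, so the knockout range lay within the control range. Its log2 fold change was -0.10 (SE 0.12, edgeR adjusted p = 0.649), and without control 4 it was 0.01. Cebpd (ENSMUSG00000071637, chromosome 16, 15887286 to 15891031, plus strand) stood at 10.8, 11.96, 7.83 and 13.03 CPM in controls 1 to 4 and at 7.54, 14.3, 7.62 and 5.33 CPM in knockouts 1 to 4. Knockout 2 was the highest of all 8 libraries and knockout 4 the lowest. The log2 fold change of Cebpd was -0.31 (SE 0.25, 95% interval -0.83 to 0.21, edgeR adjusted p = 0.454). Without knockout 2 it was -0.66 and was called lower (adjusted p = 0.0432). Over 18 alternative analyses the values ran from -0.66 to -0.15, and Cebpd was called in 1. The annotated 3′ end of Cebpd overlaps Spidr, on the opposite strand, over 1808 bases, and Cebpb overlaps Tmem189 on the opposite strand over 908 bases. Spidr had 15 reads over all 8 libraries and Tmem189 had 340. No source used here says whether reads were counted by strand, so the counting of reads within either overlap is uncertain. The overlap of Cebpb stops 596 bases before its annotated 3′ end, while that of Cebpd reaches the 3′ end.

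Tsc22d3 encodes GILZ, a leucine zipper protein that carries part of the anti-inflammatory action of glucocorticoids (ENSMUSG00000031431, chromosome X, 140539528 to 140600659, minus strand). It stood at 143.0, 169.5, 153.9 and 220.3 CPM in controls 1 to 4 and at 128.8, 152.4, 144.6 and 129.5 CPM in knockouts 1 to 4. Control 4 was far above the other libraries, and control 1 lay within the knockout range. The log2 fold change was -0.31 (SE 0.11, 95% interval -0.54 to -0.07, edgeR adjusted p = 0.0687). Tsc22d3 was called lower without control 1 (-0.38, adjusted p = 0.0204) and without control 3 (-0.37, adjusted p = 0.0481). Without control 4, its highest library, it was -0.17. The gene is X-linked, and sex-linked genes were looked at beside it. Xist had 1 read over the controls and 1 over the knockouts, and the Y-linked gene Ddx3y had between 138.0 and 176.4 CPM in all 8 libraries. Of the 4 tested Y-linked genes 0 passed the threshold, but Eif2s3y had a log2 fold change of 0.51 (SE 0.20, 95% interval 0.10 to 0.91, adjusted p = 0.0825) and was called higher without control 1 (0.0207).

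Sgk1 encodes a kinase that acts on ion channels and transporters and is induced by corticosteroids, insulin pathway signals and osmotic stress (ENSMUSG00000019970, chromosome 10, 21882184 to 21999903, plus strand). It stood at 18.3, 21.5, 30.9 and 37.2 CPM in controls 1 to 4 and at 40.6, 38.2, 34.4 and 34.1 CPM in knockouts 1 to 4. Controls 1 and 2 were low, control 3 was intermediate, and control 4 lay within the knockout range. The log2 fold change was 0.45 (SE 0.17, 95% interval 0.08 to 0.81, edgeR adjusted p = 0.0987). Without control 4 it was 0.63 and Sgk1 was called higher (adjusted p = 0.00428). In comparisons added after these values were seen, it was 0.11 (adjusted p = 0.670) against controls 3 and 4 alone, and 0.88 (adjusted p = 0.000339) against controls 1 and 2 alone. The fitted value was above 0 in both, but against controls 3 and 4 it was not called, and control 4 was above knockouts 3 and 4. The size thus depended on which controls were used.

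**Figure D2:**
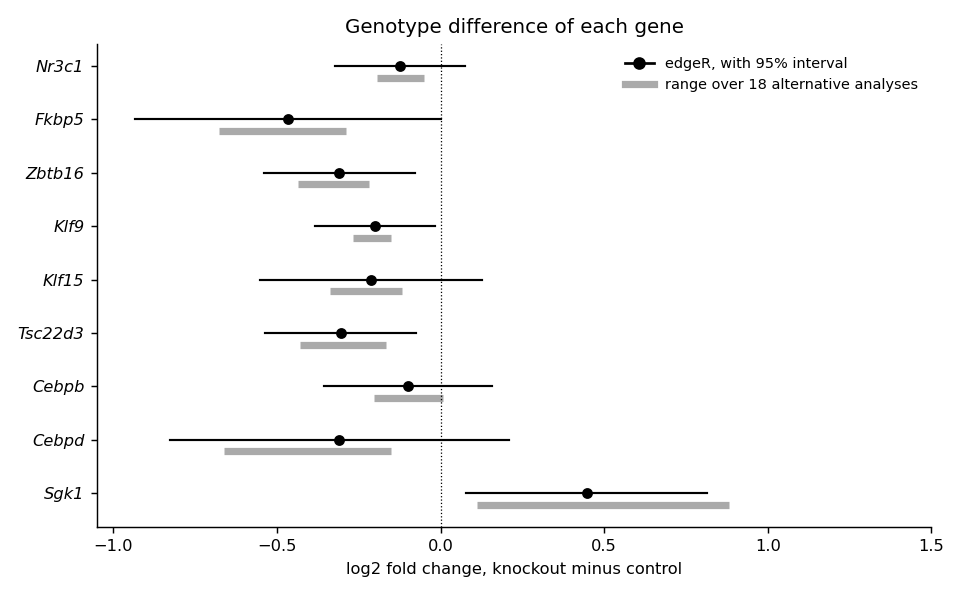
Log2 fold change, knockout minus control (x axis), of each of the 9 genes: the black point and line are the edgeR value and its 95% interval, and the grey bar below spans the values in 18 alternative analyses. The intervals of Zbtb16, Klf9 and Tsc22d3 lie below 0 and that of Sgk1 above 0 before adjustment for the number of genes, and the grey bar of Cebpb just crosses 0.

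Immediate-early genes are switched on within minutes by many stimuli, and Fos, Egr1 and Zfp36 are given beside Sgk1, chosen after their values were seen. Fos stood at 0.431, 0.811, 11.7 and 7.99 CPM in controls 1 to 4, and at 3.14, 11.7, 1.30 and 1.28 CPM in knockouts 1 to 4. Egr1 stood at 5.60, 7.30, 77.5 and 46.7 CPM in controls 1 to 4 and between 13.4 and 37.4 CPM in knockouts. Zfp36 stood at 14.6, 18.04, 41.7 and 40.6 CPM in controls 1 to 4 and between 12.3 and 27.1 CPM in knockouts. Controls 1 and 2, where Sgk1 was low, were the low controls for each of these 3 genes, although in the knockouts Sgk1 was at 34.1 CPM or more also where Fos was low. Over the whole list, controls 1 and 2 were both below controls 3 and 4 for 9 of 13 tested immediate-early genes, and for 15.1% of all tested genes. Fosl2, Ier3, Ier5 and Nr4a1 did not have this order, and Ier3 was lowest in control 4. The sample titles carry the running numbers 9 and 10 for controls 1 and 2, 15 and 16 for controls 3 and 4, and 11 to 14 for the knockouts. The titles do not say what these numbers stand for. With the number as a linear covariate, the log2 fold change of Sgk1 was 0.50 and it was called higher (edgeR adjusted p = 0.00966). The knockout numbers lie between those of controls 1 and 2 and those of controls 3 and 4. A linear term therefore cannot adjust for a difference of the middle numbers from the outer ones, which cannot be told apart from genotype. The part of these genes in the Sgk1 values was not tested.

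**Figure D3:**
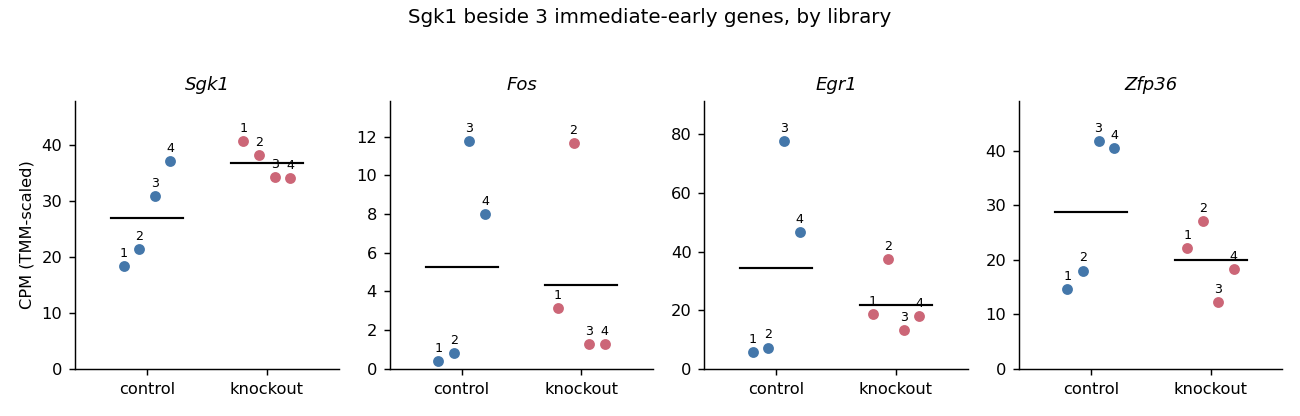
Level in CPM (y axis, from 0) of Sgk1 and of the immediate-early genes Fos, Egr1 and Zfp36 in the 4 control (blue) and 4 knockout (red) libraries, with replicate numbers beside the points and the mean as a line. In controls, libraries 1 and 2 are below libraries 3 and 4 in all 4 panels.

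The activated receptor binds DNA as a dimer, and its core recognition motif reads AGAACA, or TGTTCT on the other strand. A full site was taken here as AGAACA followed by TGTTCT after a gap of 3 bases. Only exact letters were searched, so sites that depart from them were not counted. Promoter windows from RefSeq (GRCm38.p6, 250 bases before to 50 after an annotated start) matched 6 of the 9 genes: Fkbp5, Klf9, Klf15, Tsc22d3, Cebpb and Sgk1, with 13 windows. The core motif was found on either strand in 4 of these 13 windows, all of them at Sgk1 or Tsc22d3, and in 19.0% of all 32851 windows. The full site was found in 1 window of Sgk1 and in 3 of all 32851 windows, the others being at Acnat2 and Gm35041. Given here, 5′ to 3′ on the gene's strand with core motifs in capitals, are the Sgk1 window that holds the full site, the Tsc22d3 window with 1 core motif, and the single Fkbp5 window, which has none. They were picked because the fitted values of Sgk1 and the other target genes lay on opposite sides of 0. A link between motifs and direction was not tested.
Sgk1, chr10:21993640-21993939, plus strand: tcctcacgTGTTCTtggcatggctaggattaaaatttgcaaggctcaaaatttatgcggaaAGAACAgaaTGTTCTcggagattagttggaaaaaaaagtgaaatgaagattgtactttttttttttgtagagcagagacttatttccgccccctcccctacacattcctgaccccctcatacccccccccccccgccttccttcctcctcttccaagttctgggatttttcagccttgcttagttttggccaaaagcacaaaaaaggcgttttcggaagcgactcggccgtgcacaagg
Tsc22d3, chrX:140600473-140600772, minus strand: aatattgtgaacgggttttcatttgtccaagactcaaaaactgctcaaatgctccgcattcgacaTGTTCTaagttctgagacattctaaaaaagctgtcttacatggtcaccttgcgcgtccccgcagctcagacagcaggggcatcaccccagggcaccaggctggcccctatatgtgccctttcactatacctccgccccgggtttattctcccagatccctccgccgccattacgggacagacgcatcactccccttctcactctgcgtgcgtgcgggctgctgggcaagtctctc
Fkbp5, chr17:28486100-28486399, minus strand: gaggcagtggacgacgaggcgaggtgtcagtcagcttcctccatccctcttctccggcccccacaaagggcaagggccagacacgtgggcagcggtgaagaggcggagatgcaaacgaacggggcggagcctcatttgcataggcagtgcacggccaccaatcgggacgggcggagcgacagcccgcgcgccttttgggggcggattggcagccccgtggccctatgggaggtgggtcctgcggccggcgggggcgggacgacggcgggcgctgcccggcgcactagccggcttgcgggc

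In the Sgk1 window the full site began 189 bases before the annotated start, and a further TGTTCT began 242 bases before it. Sgk1 has 6 windows in the table, and 2 others held 1 core motif each. In the Tsc22d3 window TGTTCT began 185 bases before the start. Reads from the 3′ end do not tell which start was used, and a match in a window describes its letters only.

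Some libraries were high or low for many of the 9 genes at once. Control 4 was above the control mean (log2 CPM) for 9 of 9 genes and was the highest control for 6 of them. Control 3 was below the mean for 7 of 9, and it was the lowest control for Fkbp5, Zbtb16, Klf9, Cebpb and Cebpd. Over all tested genes, control 4 was above the control mean for 49.4% and control 3 for 50.7%. TMM scaling brings the typical gene of each library to a like level, so these shares were near even by construction. In knockouts, Cebpd and Fkbp5 stood 0.78 and 0.52 above the group mean on the log2 scale in knockout 2, while the other 7 genes lay between -0.15 and 0.14 there. Nr3c1 had no such pattern, being 0.01 above the control mean in control 4 and 0.04 below it in control 3.

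**Figure D4:**
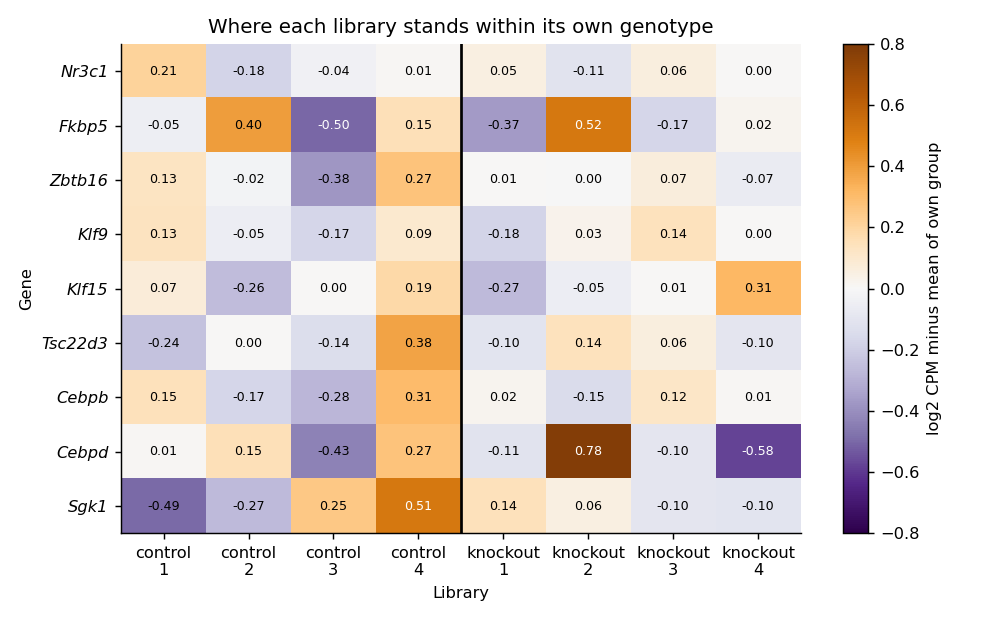
Log2 CPM of each of the 9 genes (rows) in each library (columns) minus the mean of that library's own genotype. Control 4 has values above 0 in every row, control 3 has its lowest values at Fkbp5 (-0.50) and Cebpd (-0.43), and knockout 2 is high at Cebpd (0.78) and Fkbp5 (0.52).

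A wider list of genes known to be induced by glucocorticoid held 31 genes besides the 8 targets, 30 of them tested. Control 4 was above its group mean for 23 of the 30 genes and control 3 for 9, as in the 9 genes. Knockout 2 was above its mean for 24 of the 30, beside 5 of the 9 genes and 51.6% of all tested genes. Of the 30 genes, 3 were higher and 5 lower in knockouts, against 8.87% of all tested genes called higher and 6.80% called lower. The median log2 fold change was -0.08. Cdkn1a, a cell cycle inhibitor gene, was at 8.21 ± 1.22 CPM in controls and rose to 19.8 ± 4.796 CPM in knockouts (SD, n = 4 each). Its log2 fold change was 1.26 (SE 0.18, edgeR adjusted p = 1.74e-05). Rgs2, which limits G protein signalling, rose from 9.37 ± 1.82 to 18.3 ± 0.486 CPM (adjusted p = 9.02e-05), and Rhou from 30.7 ± 1.47 to 46.2 ± 5.80 CPM (adjusted p = 0.000406). Glul, the glutamine synthetase gene and a classical glucocorticoid target in muscle, was at 154.5 ± 34.3 CPM in controls and fell to 66.0 ± 5.42 CPM in knockouts (adjusted p = 1.69e-05, log2 fold change -1.23, SE 0.14). The list therefore held falls and rises side by side, and both groups of libraries were separated for each of these 4 genes. They were the called genes of lowest p. Over the list the groups did not overlap for 8 of the 30 genes, beside 19.2% of all tested genes.

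The 4 other called genes of this list were all lower, and they are named here after their values were seen. Lpin1, a phosphatidate phosphatase gene, had a log2 fold change of -0.41 (SE 0.09) and Bcat2, the mitochondrial branched-chain aminotransferase gene, -0.75 (SE 0.20). Map3k6 had -1.22 (SE 0.32) at a control mean of 4.33 CPM. Irs2, an insulin receptor substrate gene, had -0.56 (SE 0.15, edgeR adjusted p = 0.0111), and its call was lost without control 1 (adjusted p = 0.0504) and without controls 3 and 4 (0.052). The call of Map3k6 was lost without controls 1 and 2 (0.129) and that of Bcat2 without controls 3 and 4 (0.0544). The muscle ubiquitin ligase genes Trim63 and Fbxo32, also chosen after their values were seen, did not pass the threshold. Trim63 stood at 601.1, 560.7, 381.4 and 783.1 CPM in controls 1 to 4 and at 308.8, 459.5, 308.8 and 355.4 CPM in knockouts 1 to 4. Fbxo32 stood at 2645, 2490, 1705 and 2809 CPM in controls and at 1498, 2210, 1833 and 1754 CPM in knockouts. Control 3 was the lowest control and knockout 2 the highest knockout for both, as for Fkbp5. Their log2 fold changes were -0.70 for Trim63 (SE 0.24, edgeR adjusted p = 0.101) and -0.40 for Fbxo32 (SE 0.15, adjusted p = 0.0979). Both were called lower by DESeq2 (adjusted p = 0.0354 and 0.0217), without control 3 (0.000961 and 0.00129), without knockout 2 (0.0413 and 0.0264), without the robust estimate of spread (0.00508 and 0.0441) and without controls 3 and 4 (0.00198 and 0.0118). With no filter on low counts Fbxo32 was also called (7.79e-05). Per1, a clock gene that glucocorticoids induce directly, had a log2 fold change of -0.04 (SE 0.29).

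The receptor's chaperones hold it ready to bind hormone. Of 15 tested chaperone and cochaperone genes 0 were higher and 3 lower, beside 8.87% and 6.80% of all tested genes. In 14 the log2 fold change was below 0, beside 49.1% of all tested genes, and the median was -0.21. Bag1, an HSP70 cochaperone gene that restrains the receptor, fell from 72.7 ± 5.96 to 58.1 ± 1.496 CPM (SD, n = 4 each; edgeR adjusted p = 0.0149). St13, which encodes the HSP70 interacting protein Hip, fell from 177.7 ± 9.45 to 143.8 ± 12.6 CPM (adjusted p = 0.0141), a call lost without knockout 2 (0.0578) and without knockout 3 (0.0571). Stip1, which encodes Hop, the adaptor between HSP70 and HSP90, had a log2 fold change of -0.27 (SE 0.09, adjusted p = 0.0377). Its call was lost without control 1 (0.0566), control 2 (0.113), knockout 2 (0.0831), knockout 3 (0.0915) or knockout 4 (0.0771). Without knockout 1 the list had 5 lower members, and without controls 1 and 2 it had 0. Hsp90ab1, the constitutive HSP90 gene, stood at 4204 ± 289 CPM in controls and 3962 ± 189 CPM in knockouts (log2 fold change -0.09, SE 0.08).

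Coregulators link the receptor to the transcription machinery. Of 14 tested, 0 were higher and 2 lower, a count near the 15.7% of all tested genes called in either direction. Crebbp, a histone acetyltransferase gene, fell from 177.8 ± 3.92 to 146.0 ± 7.46 CPM (SD, n = 4 each; edgeR adjusted p = 0.0147). Smarca4, the ATPase gene of a chromatin remodelling complex, fell from 108.8 ± 4.58 to 85.9 ± 9.74 CPM (adjusted p = 0.0104), a call lost without knockout 2 (0.0535). Without controls 3 and 4 neither was called (0.0866 and 0.0653), and without controls 1 and 2 Crebbp was not (0.0646). The list's median was -0.02, and the corepressor gene Ncor1 stood at 220.9 ± 3.85 and 218.0 ± 10.7 CPM.

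Of the 7 genes for corticosteroid supply and the mineralocorticoid receptor, 4 were tested and 1 was lower, beside 6.80% of all tested genes. Hsd11b1, whose enzyme regenerates active glucocorticoid inside cells, stood at 2.80 ± 0.751 CPM in controls and 2.25 ± 0.529 CPM in knockouts (SD, n = 4 each; log2 fold change -0.31, SE 0.31). Nr3c2, the mineralocorticoid receptor gene, did not pass the filter, with 24 reads over the 4 controls and 15 over the 4 knockouts. Hsd11b2, whose enzyme inactivates the hormone, had 2 reads in controls and 0 in knockouts, too few to compare at this depth. Abcb1b, a drug and steroid efflux pump gene, was the 1 called gene, with a log2 fold change of -0.60 (SE 0.18, edgeR adjusted p = 0.0234). Its call was lost without control 1 (0.0648), control 4 (0.0720), knockout 2 (0.0608) or knockout 4 (0.0960), and without controls 1 and 2 (0.075) or 3 and 4 (0.105).

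Among 14 genes that glucocorticoids are known to repress, mostly inflammatory genes, 4 passed the filter and 1 was lower, beside 6.80% of all tested genes. That gene was Igf1, a growth factor gene, at 15.5 ± 3.21 CPM in controls and 10.9 ± 1.44 CPM in knockouts (SD, n = 4 each; log2 fold change -0.50, SE 0.17, edgeR adjusted p = 0.0407). The call was lost by DESeq2 (0.0703) and limma voom (0.0506), and without control 3 (0.102), control 4 (0.151), knockout 1 (0.0723), knockout 2 (0.116) or knockout 3 (0.0853), and without controls 3 and 4 (0.536). Macrophages also make Igf1, and 3 of 8 tested macrophage markers were lower in knockouts, with summed levels that overlapped between the groups. Without controls 3 and 4 these marker calls were lost too. The part of macrophages in the Igf1 value was not tested.

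**Figure D5:**
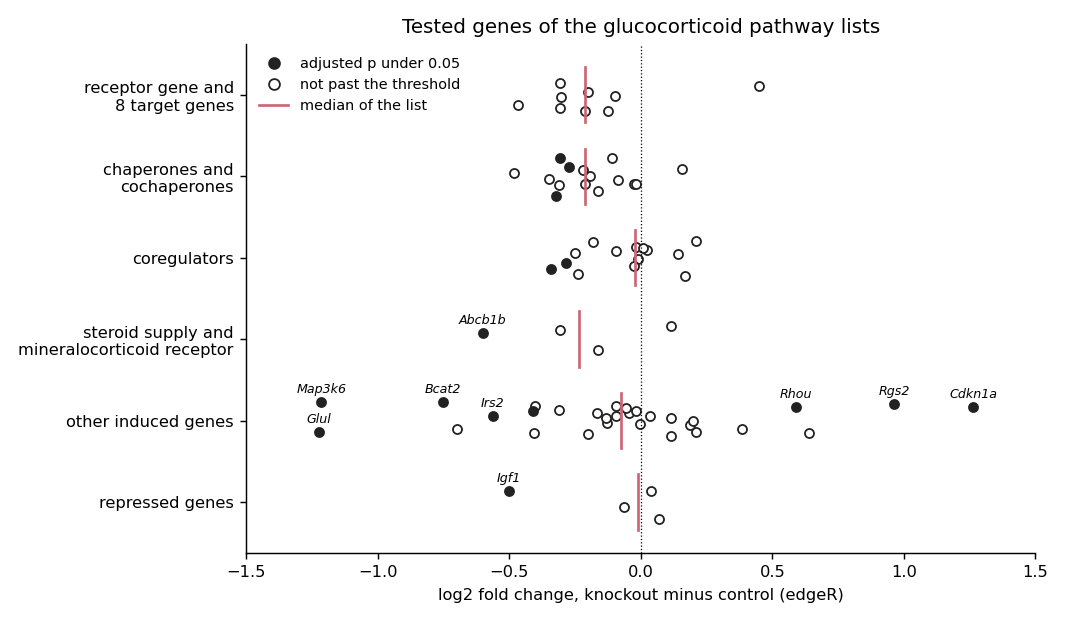
Log2 fold change, knockout minus control (x axis), of every tested gene in the group and in 5 lists around it, with genes past an edgeR adjusted p of 0.05 filled and the list's median as a red line. The top row, the 9 genes described here, has 0 filled points, and the row of other induced genes has 3 filled points above 0 and 5 below.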

How the data were processed

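RNA of 8 quadriceps libraries was measured by QuantSeq 3′ FWD sequencing, per the labels. For each library the authors deposited a table of raw counts by Ensembl gene ID, per the file headers. GRCm38 and mm10 are the builds, and Subread 1.6.2, featureCounts and Bowtie2 2.3.4.1 the tools, per the submitters' processing notes. No source used here gives the annotation release, the strand setting or the handling of multi-mapping reads. Symbols and coordinates came from GENCODE M21 (GRCm38), which matched 54495 of 54532 genes.

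Genotype labels set the groups, and accession order the replicate numbers. Genes were filtered by filterByExpr (minimum count 10, minimum total 15), scaled by TMM, and tested in R 4.3.3 with edgeR 4.0.16 (robust quasi-likelihood F test), with Benjamini-Hochberg adjustment over 10691 genes and a threshold of 0.05. SE is the size of the log2 fold change over the root of the F statistic, and intervals are 95%. A floor of 3 reads equals 0.557 to 0.646 CPM. It covers counting error only. In no pair of libraries did counts agree within sampling noise (chi-square per degree of freedom at least 2.33). The procedure was tested on simulated data. DESeq2 1.42.0, limma 3.58.1 (voom), other scalings and filters, a covariate and leaving out libraries were alternatives.

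The genes and lists were chosen with earlier results of these data known. Beyond the 9 genes and Gpcpd1, the text names per list up to 4 called genes of lowest p, or 2 tested genes as values where 0 were called; others are marked as chosen after their values were seen or are given as background members of a list. The rule also asked for the genes with profiles nearest to each called gene of the 9, and there were 0 such genes. Part of the clock gene list is not reported here.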

Additional observations from a re-analysis of the deposited data

Results flagged for a closer look

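Of 126 groups of 4 libraries checked (63 genes in both genotypes), 5 held a library far from the other 3, and chance alone marks about 1 group in 20. None was in the 9 genes of the glucocorticoid group. Nfil3, a clock-linked repressor gene that was lower in knockouts, stood at 5.68 CPM in control 3 against 11.0 to 11.8 CPM in the other controls. Control 3 was also high for Klf10, a Krüppel-like factor gene, at 11.9 CPM against 8.72 to 8.83 CPM. Ier3, an immediate-early gene, was at 42.2 CPM in control 4 against 49.1 to 50.5 CPM in the other controls, and at 32.9 CPM in knockout 3 against 37.9 to 38.2 CPM in the other knockouts. Cfd, an adipocyte marker, was at 21.2 CPM in knockout 1 against 11.9 to 12.99 CPM in the other knockouts.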

How the results depend on the processing

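In 18 alternative analyses, 8 of the 9 genes kept the sign of their log2 fold change in every one. The exception was Cebpb, at 0.007 without control 4. With no filter on low counts 3 of the 9 genes were lower and 1 higher, namely Fkbp5 (-0.48), Zbtb16 (-0.33), Tsc22d3 (-0.32) and Sgk1 (0.43). The fit with no filter tested 22813 genes and called 8.04% of them in either direction. With the library number as a covariate 1 was higher (Sgk1, 0.50), beside 15% of all tested genes called. Without controls 1 and 2, 1 was lower (Tsc22d3, -0.43), beside 10.9% of all tested genes called. Without controls 3 and 4, 1 was higher (Sgk1, 0.88), beside 8.93%. Both of these settings were added after seeing the data. Fits that left out 1 library called 12% to 15.9% of all tested genes. These fits gave 0 to 3 lower and 0 to 1 higher genes of the 9. Over these, Fkbp5 ran from -0.68 to -0.33, Zbtb16 from -0.44 to -0.22, Tsc22d3 from -0.38 to -0.17, Cebpb from -0.20 to 0.01, Cebpd from -0.66 to -0.15 and Sgk1 from 0.30 to 0.63. The cause was not tested. Called genes over the whole table numbered 948 higher and 727 lower, and 544 and 456 without controls 3 and 4, where fewer samples enter. Without controls 1 and 2, which leaves as many libraries, they numbered 729 and 489.

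Lower genes numbered 1 to 5 among chaperones, 1 to 2 among coregulators, 0 to 1 for steroid supply and 0 to 1 among repressed genes when 1 library was left out. Without controls 1 and 2 they numbered 0 among chaperones, 1 among coregulators and 0 for steroid supply, and without controls 3 and 4 there were 0 among coregulators, 0 for steroid supply and 0 among repressed genes. By DESeq2 and limma voom there were 0 among repressed genes. No paired analysis was possible because the labels give no replicate number that the groups share. Among the 9 genes, reads were fewest for Cebpd (211 in controls, 177 in knockouts) and Klf15 (248 and 221), which limits what their counts can show.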

Other observations

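Relatives of the 9 genes were counted by family. In the FKBP family 1 of 12 tested genes was higher and 1 lower, a share near the 15.7% of all tested genes called. Fkbp3, a nuclear FK506-binding protein gene, was at 143.4 ± 18.3 CPM in controls and rose to 184.9 ± 6.94 CPM (SD, n = 4 each; edgeR adjusted p = 0.00622). Fkbp1a, which encodes the calcium release channel partner FKBP12, fell from 121.9 ± 11.3 to 97.6 ± 6.11 CPM (adjusted p = 0.0138), a call lost without knockout 2 (0.0607). By edgeR, 0 of 13 tested KLF genes, 0 of 6 C/EBP family genes, 0 of 4 TSC22 genes and 0 of 2 SGK genes were called. Klf10 had a log2 fold change of 0.40 (SE 0.18), Tsc22d2 -0.25 (SE 0.11), Sgk3 0.29 (SE 0.20), Ddit3 0.22 (SE 0.12) and Cebpg 0.14 (SE 0.11).

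Glucocorticoid release follows the clock, and the clock genes were looked at beside the group. Of 18 tested, 3 were lower, beside 6.80% of all tested genes. Rora, an activator of the clock loop, fell from 416.0 ± 7.70 to 253.9 ± 12.7 CPM (SD, n = 4 each; edgeR adjusted p = 5.31e-07). Tef fell from 909.0 ± 139 to 648.3 ± 96.2 CPM (adjusted p = 0.00556), and Nfil3 fell from 10.0 ± 2.90 to 4.82 ± 1.03 CPM (adjusted p = 0.00242). No source used here states the time of day at which tissue was taken. Without controls 1 and 2, the calls of Nfil3 (adjusted p = 0.061), Fkbp3 (0.0953) and Fkbp1a (0.11) were lost.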
